A study of Mus musculus with 8 samples.

Results

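Liver ERRα binding sites that both genotypes shared and that neither skeletal muscle list held are described here. A site was selected on the called intervals of the 4 ERRα ChIP-seq peak lists: it is an interval of the WT liver list whose centre lay within 300 bp of the centre of an ERRα3SA liver interval, and which shared no base with any interval of the WT or the ERRα3SA muscle list. Of the 21813 WT liver intervals, 4844 met this rule, or 22.2%, out of 126927 intervals in the 4 lists together. In all, 9361 WT liver intervals had an ERRα3SA partner, and the selected sites made up 51.7% of these. These sites are called liver-only sites below. The name refers to the called lists, since a missing muscle interval means that no peak passed the authors' threshold there, not that binding was shown to be absent. They were set beside the 2206 WT liver intervals that had an ERRα3SA partner and shared a base with both muscle lists, called shared-tissue sites, and beside the 2309 muscle-only sites, chosen in the WT muscle list by the mirrored rule.

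The study asked whether ERRα with mutated phosphorylation sites binds chromatin differently in liver and skeletal muscle. WT mice and mice carrying the ERRα 3SA phospho-mutant, in which phosphorylated serines near the N-terminus of the receptor are replaced by alanine in every tissue, were male C57BL/6N animals between 2 and 3 months old. Each list comes from 1 library, made from a pool of crosslinked livers from 2 mice or of gastrocnemius and soleus muscle from 5 mice, with 3 immunoprecipitations combined according to the sample labels. There is therefore no replicate in any group, no p-value is given, and genotype or tissue cannot be told apart from the library that represents it. Intervals given with shares are 95% Wilson intervals, and those of differences between shares are Newcombe intervals, and both cover counting error only. Sequencing depth is unknown because the lists give no read numbers, and neither the mutation nor the expression of tissue markers can be read from them.

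ERRα is an orphan nuclear receptor that binds DNA at the ERR response element (ERRE), an extended form of the AGGTCA hexamer that many nuclear receptors read. Together with PGC-1 coactivators it is known for controlling genes of mitochondrial respiration and fuel oxidation in tissues of high energy demand. In liver it acts in a chromatin landscape set by hepatocyte factors such as HNF4α, FOXA and C/EBP proteins, at genes of glucose, lipid, amino acid and bile acid metabolism.

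Both strands of the central 300 bp of each interval were searched for the ERRE, written TCAAGGTCA. The first lines show 61 bases around it at 2 sites where it lay outside exons, one among the strongest sites and one at a listed gene, near Cox18, which encodes a mitochondrial inner membrane insertase for cytochrome c oxidase, and near the clock gene Arntl. Capitals mark the element, and every sequence is written 5′ to 3′ on the strand of the element, from GRCm38.p6.
Cox18: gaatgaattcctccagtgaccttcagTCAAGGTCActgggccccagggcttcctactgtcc
Arntl: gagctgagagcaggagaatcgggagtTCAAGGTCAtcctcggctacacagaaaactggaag
The Cox18 sequence is the plus strand of chr5:90209421-90209481 and the Arntl sequence the minus strand of chr7:113219662-113219722. The next lines show sites in ID_B1 short interspersed repeats, near Cse1l, Rnf170 and Tmem51os1. They are the 3 highest-scoring ones that held the ERRE with no exon in the window. This repeat was picked because 80.6% of its sites held the ERRE, a larger share than in any other annotation examined.
Cse1l: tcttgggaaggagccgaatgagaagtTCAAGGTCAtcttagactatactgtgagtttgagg
Rnf170: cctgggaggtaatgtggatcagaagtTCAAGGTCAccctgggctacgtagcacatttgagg
Tmem51os1: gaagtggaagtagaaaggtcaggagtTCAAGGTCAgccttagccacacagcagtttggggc
They lie at chr2:166912238-166912298 on the plus strand, chr8:26132331-26132391 on the minus strand and chr4:142054253-142054313 on the plus strand, each in an intron. The Arntl site above was annotated to an ID_B1 repeat as well. The last lines show named sites without the exact element, with the closest stretch of the same length in capitals. Differences are written with the base of the ERRE, its position counted from 1 at the 5′ end of the element, and the base of the site.
Plscr2: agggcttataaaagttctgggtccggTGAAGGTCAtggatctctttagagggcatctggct
Tex264: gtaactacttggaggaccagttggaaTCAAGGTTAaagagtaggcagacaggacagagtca
Serpina1b: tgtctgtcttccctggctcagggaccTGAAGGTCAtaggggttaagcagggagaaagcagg
Cpt1a: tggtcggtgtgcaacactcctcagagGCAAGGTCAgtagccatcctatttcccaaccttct
Bhmt: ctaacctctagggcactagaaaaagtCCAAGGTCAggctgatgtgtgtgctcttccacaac
Acads: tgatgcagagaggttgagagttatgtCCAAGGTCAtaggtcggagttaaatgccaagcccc
Klb: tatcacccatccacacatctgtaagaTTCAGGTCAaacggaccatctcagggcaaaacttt
Gnmt: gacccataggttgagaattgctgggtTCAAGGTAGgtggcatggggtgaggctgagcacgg
Plscr2 (chr9:92276017-92276077, minus strand) and Serpina1b (chr12:103736101-103736161, minus strand) carried C2G, Tex264 (chr9:106725095-106725155, plus strand) carried C8T, Cpt1a (chr19:3326764-3326824, minus strand) carried T1G, and Bhmt (chr13:93648605-93648665, plus strand) and Acads (chr5:115118865-115118925, plus strand) carried T1C. At Klb (chr5:65367862-65367922, plus strand) the closest stretch differed by C2T and A3C, and at Gnmt (chr17:46735628-46735688, minus strand) by C8A and A9G. The groups of sequences other than that of Cox18 and Arntl were chosen after the values were seen.

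The liver-only sites scored above the middle of their list but below the shared-tissue sites. Their WT score, a whole number of at least 30 given by the authors' peak caller against input DNA, ranged from 30 to 1656, with a median of 62 (quartiles 44 and 97). The shared-tissue sites of the same list had a median of 127, and all WT liver intervals together one of 44. The median liver-only site stood in the top 28.5% of the WT liver list, and its ERRα3SA partner in the top 22.8% of the ERRα3SA liver list. Liver-only sites made up 553 of the 2202 strongest WT liver intervals, the top 10%, or 25.1%, but 15 of the 218 in the top 1%, or 6.88%. Partner scores ranged up to 2180, with a median of 89 (quartiles 55 and 151), and are not compared with WT scores since the scale of a list moves with its depth and input. Across the 4844 sites the ranks of the WT and partner scores correlated with a Spearman rho of 0.624, given as a description, since the sites were chosen for being in both lists. In 1017 sites both scores reached 100.

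**Figure D1:**
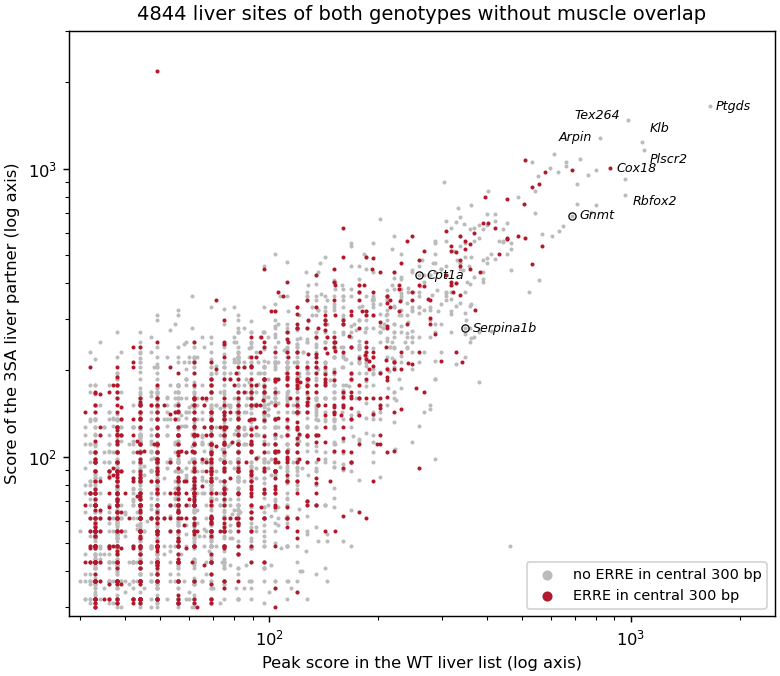
Score of each of the 4844 liver-only sites in the WT liver list (x axis, log scale) and of its ERRα3SA partner (y axis, log scale), with sites holding an ERRE in the central 300 bp in red and the others in grey. The strongest sites lie in the upper right, led by Ptgds at 1656 and 1649, and the single point far above the cloud is the site at Qprt, at 49 and 2180.

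The rule sets how near the intervals of the genotypes lie, so their positions are given as a description. Every liver-only site shared a base with its partner and each had a partner of its own. The centre distance, which the rule limits, had a median of 73.8 bp (quartiles 30.5 and 142 bp). The median width was 492 bp in WT and 541 bp in ERRα3SA, and the ERRα3SA interval was the wider one at 2794 sites, the WT interval at 2037. At the limit of 300 bp, sites annotated to Atp6v0e (score 33) and Tmem212 (42) were just inside at 300 bp and one in Gpam (221) at 298.5 bp, while a site annotated to Suclg2 (127) at 300.5 bp was just outside. The ratio of the partner score to the WT score was highest at Qprt and lowest near Olfr161. The interval in an intron of Qprt, which encodes an enzyme of NAD synthesis from tryptophan, was 300 bp wide with a score of 49 in WT and lay inside an ERRα3SA interval of 4630 bp with a score of 2180, in the top 0.138% of its list. Near Olfr161, an olfactory receptor gene, the WT score was 464 and the ERRα3SA score 49.

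The 8 strongest liver-only sites were annotated to genes of diverse function. The highest score belonged to an intergenic site 2712 bp from the TSS of Ptgds, which encodes prostaglandin D2 synthase, at 1656 in WT and 1649 in ERRα3SA, in the top 0.220% and the top 0.234% of the lists. It was followed by a site in the first intron of Plscr2, a phospholipid scramblase (1087 and 1158), and by one in the first intron of Klb (1074 and 1234). Klb encodes β-Klotho, the coreceptor that lets hepatocytes respond to FGF19-type hormones. A site 39157 bp upstream of the TSS of Tex264, the gene it was annotated to and a receptor for autophagy of the endoplasmic reticulum, lay in an intron of another transcript and scored 980 and 1480. Sites annotated to AY512915 (967 and 924), Rbfox2, a splicing factor (967 and 807), Cox18 (876 and 1003) and Arpin, an inhibitor of the Arp2/3 complex (824 and 1279), completed the 8 strongest. Each of these sites stood in the top 1.01% or higher of both liver lists. The nearest WT muscle interval was 5288 bp away at Ptgds and 251478 bp away at Plscr2. One of the 8, at Cox18, held the ERRE.

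The liver-only sites carried the ERRE far more often than the muscle-only sites, while their difference from the shared-tissue sites could not be told from 0. It was present in 1174 of the 4844 windows, or 24.2% (23.1 to 25.5). The share was 23.3% in the shared-tissue sites, a difference of 0.891 percentage points (−1.27 to 3.00), which includes 0. Another 1897 WT liver intervals with a partner shared a base with the ERRα3SA muscle list but not the WT muscle list. Their ERRE share was 29.2% (27.2 to 31.3), above that of the liver-only sites, with Wilson intervals that did not overlap. In the muscle-only sites the share was 5.24%, and the liver-only share was 19.0 points (17.5 to 20.5) higher. Windows 5 kb to either side of the liver-only sites held it in 0.867%, and the reversed motif ACTGGAACT was found in 0.454% of the liver-only windows. Allowing any base at the second position raised the share to 32.3% in the liver-only sites, 30% in the shared-tissue sites and 7.75% in the muscle-only sites. The AGGTCA hexamer alone was in 70.0% of the liver-only windows, against 34.5% of the muscle-only and 18.8% of the neighbouring windows. A stretch within 1 mismatch of the ERRE was present in 56.5% of the liver-only, 57.5% of the shared-tissue and 22.5% of the muscle-only windows, and in 11.3% of the neighbouring ones.

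The difference from muscle-only sites held at every strength. In liver-only sites the ERRE share was 21.1% at scores of 30 to 49, 24.1% at 50 to 99, 30.2% from 100 to below 200 and 27.6% at 200 or more. In muscle-only sites it was 3.90%, 9.60%, 10.1% and 6.12% in the same bands of the WT muscle list, whose scores are on a scale of their own, with 49 sites in the last. Base composition moved with the classes, with a median GC content of the window of 48.3% in liver-only, 53.0% in shared-tissue and 54.7% in muscle-only sites. Windows of similar GC were therefore set side by side. In windows of 45 to 50% GC the ERRE share was 28.4% in liver-only, 35.3% in shared-tissue and 11.7% in muscle-only sites, and in windows of 50 to 55% GC it was 16.9%, 26.6% and 6.93%. In windows of 55% GC or more it was 5.69%, 12.7% and 2.05%. In these 3 bands the ERRE was less frequent in liver-only than in shared-tissue sites and more frequent than in muscle-only sites, with Wilson intervals that did not overlap. Under 45% GC the shares were 34.7%, 31.5% and 13.9%, the last over 36 sites. Whether the difference in GC has a part in the other values was not tested.

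**Figure D2:**
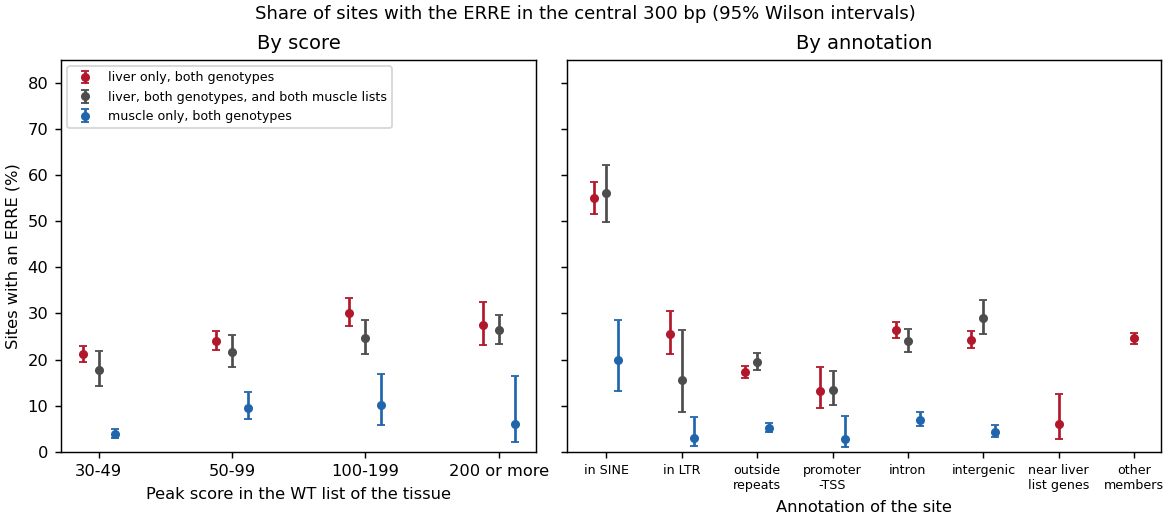
Share of sites with an ERRE in the central 300 bp (y axis, %) by score band of the WT list of the tissue (left) and by annotation (right), with 95% Wilson intervals, for liver-only sites (red), shared-tissue sites (grey) and muscle-only sites (blue). The red points lie above the blue ones wherever both are drawn, reach 55.1% in SINE repeats and drop to 6.06% near genes of the 8 liver lists.

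Within the window, the element lay toward the centre. Of 1271 ERREs in liver-only sites, 574 (45.2%) were within 50 bp of the interval centre, 460 between 50 and 100 bp and 237 between 100 and 150 bp, with 651 on the plus strand. A window held 1 ERRE at 1090 sites, 2 at 75 sites and 3 or more at 9 sites. The share of ERREs within 50 bp was similar in the other classes, at 41.9% in shared-tissue and 42.6% in muscle-only sites. The base after the element was T in 40.8% of the liver-only ERREs and in 33.1% of the shared-tissue ones, a difference of 7.71 points (3.00 to 12.3). It was C in 22.9% against 31.9%, a difference of −9.0 points (−13.5 to −4.66). Among stretches ending in AAGGTCA, the ERRE made up 40.1% and CCAAGGTCA 16.5% in liver-only sites, against 36.9% and 23.7% in shared-tissue sites.

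**Figure D3:**
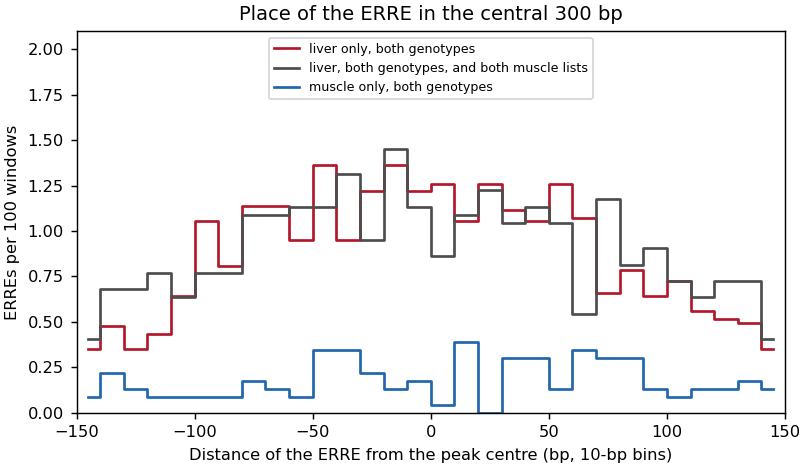
Number of ERREs per 100 windows (y axis) by distance of the element from the peak centre (x axis, in bins of 10 bp) for liver-only, shared-tissue and muscle-only sites. The red and grey lines rise toward the centre, where 45.2% of the liver-only ERREs lie within 50 bp. The blue line stays low across the window, with 122 ERREs in all, of which 42.6% lie within 50 bp.

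Repeats held a large part of the ERREs. SINE repeats were the annotation at 17.2% of the liver-only sites, against 11% of the shared-tissue sites, a difference of 6.27 points (4.55 to 7.92), and 4.37% of the muscle-only sites. Of the 835 liver-only sites in SINEs, 460 (55.1%) held the ERRE. The share in SINEs was similar in shared-tissue sites, at 56.2%, and lower in muscle-only sites, at 19.8%. In the B4 family of SINEs it was 67.3% in liver-only, 71.6% in shared-tissue and 30.6% in muscle-only sites. A single repeat, ID_B1, was annotated at 356 liver-only sites, or 7.35% of all, and 287 of these (80.6%) held the ERRE, as in the sequences of Arntl, Cse1l, Rnf170 and Tmem51os1 above. LTR elements were annotated at 6.85% of the liver-only sites against 2.90% of the shared-tissue ones, and 25.6% of these 332 liver-only sites held the ERRE. In LTR elements the share was 15.6% in shared-tissue sites, with overlapping Wilson intervals. Outside annotated repeats the share was 17.2% in liver-only, 19.5% in shared-tissue and 5.19% in muscle-only sites, so that the difference from muscle-only sites became 12.0 points (10.4 to 13.6) and that from shared-tissue sites −2.26 points (−4.51 to −0.0706).

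Over all windows, the C/EBP, forkhead and HNF4 motifs of hepatocyte factors were more frequent in liver-only sites than in either other class, by small amounts. Between windows of similar GC the intervals of the single shares overlapped for C/EBP and forkhead, and HNF4 was not examined by GC. Overlap of such intervals does not show that no difference remained. The C/EBP motif TTGCNNAA was in 13.7% of the windows, against 9.47% of the shared-tissue sites, a difference of 4.23 points (2.63 to 5.76), and 7.93% of the muscle-only sites. The forkhead motif TGTTTAC, read by FOXA proteins, was in 4.54% against 2.54% and 2.47%. The HNF4 motif CAAAGTCCA was in 0.867% (1.69% when the whole interval was searched) against 0.0907% and 0.433%. Against their own neighbouring windows, the liver-only sites had a higher share for C/EBP (11.8% in neighbours) and HNF4 (0.413%), while for forkhead (4.23%) the interval of the difference included 0. A higher share was not particular to these 3 motifs. The AP-1 motif TGANTCA was in 9.91% of the liver-only windows, against 8.02% of the shared-tissue, 6.84% of the muscle-only and 8.63% of the neighbouring ones. The intervals of these AP-1 differences excluded 0, and AP-1 was not examined by GC. The E-box CAGCTG, read by myogenic factors among others, was in 17.4% of the liver-only and 25% of the muscle-only windows, a difference of −7.63 points (−9.71 to −5.59). In windows of 55% GC or more the E-box shares were 21.9% (18.7 to 25.5) and 28.3% (25.7 to 31.0), while in the 3 bands of lower GC the intervals overlapped, with 21.3% and 22.6% at 50 to 55% GC. The C/EBP shares at 50 to 55% GC were 13.1% (11.4 to 15.1) in liver-only, 10.2% (8.19 to 12.5) in shared-tissue and 9.47% (7.69 to 11.6) in muscle-only sites. The forkhead shares there were 3.81%, 2.27% and 2.89%, again with overlapping intervals. Under 45% GC the order turned, within overlapping intervals, with C/EBP in 16.6% of the liver-only and 19.2% of the shared-tissue windows, and forkhead in 5.96% of the liver-only and 8.33% of the 36 muscle-only windows. The part of base composition in the motif differences was not tested further. The MEF2 motif CTAAAAATA was in 0.392% and 0.390%. The GC box GGGCGG, common in promoters, was in 7.37% of the liver-only against 18.2% of the shared-tissue windows.

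Liver-only sites were at promoters less often than shared-tissue sites. The authors' annotation placed 226 of them (4.67%) in promoter-TSS regions, against 14.6% of the shared-tissue sites, a difference of −9.89 points (−11.5 to −8.34), and 4.68% of the muscle-only sites. Introns held 48.4% and intergenic regions 40.4%, the latter against 26.9% of the shared-tissue sites. Within 1 kb of the nearest TSS lay 8.32% of the liver-only and 28.3% of the shared-tissue sites, and within 20 kb 54.0% and 68.5%. In the band of scores of 200 or more the promoter share was 4.23% against 15.7%, a difference of −11.5 points (−14.7 to −7.92), so the gap was as large among strong intervals. CpG islands were annotated at 34 liver-only sites (0.702%), none with an ERRE in the window (0 to 10.2%), and at 6.53% of the shared-tissue sites. The ERRE share within liver-only sites was 11.9% up to 1 kb from a TSS and between 22.8% and 28% in each band of distance farther out. The other classes also had their lowest share up to 1 kb. It was 13.3% in shared-tissue sites, against 24.5% to 28.7% farther out, and 1.08% in muscle-only sites, against 4.35% to 6.94%.

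Most liver-only sites had a muscle interval within 10000 bp, and few had one within 1000 bp. The nearest muscle interval was a median of 7162 bp away, within 1000 bp at 569 sites and within 10000 bp at 2827 sites (58.4%), and it belonged to the longer ERRα3SA muscle list at 66.9% of the sites. The ERRE share was 20% at the 569 sites with a muscle interval within 1000 bp and 24.8% at the others. Just inside the rule, a site at Dennd3 (score 49) had a muscle interval 3 bp away, those at Dll1 (71) and Kctd5 (33) 4 bp away, and one at Fabp6 (44) 5 bp away. Just outside it, intervals at Il17rc (62) shared 4 bases, at Stard10 (75) 6, at Asgr1 (135) 8 and at Gmps (33) 9 bases with a muscle interval. Asgr1 encodes a subunit of the hepatocyte asialoglycoprotein receptor.

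Near genes, liver-only sites were found at liver genes more often than at genes in general, and so were liver intervals of any class. A liver-only site lay within 20 kb of the TSS, in the authors' nearest-gene annotation, for 1972 of 21896 protein-coding genes, or 9.01%, while shared-tissue sites did so for 5.50% and muscle-only sites for 4.45%. Of the 218 genes in 8 lists of liver function, from hepatic transcription factors to fatty acid oxidation, 74 had one (33.9%), 25.2 points (19.2 to 31.7) above all other genes. With both liver scores at 100 or more the share was 10.6% of the listed and 2.05% of all protein-coding genes, with no muscle interval within 10000 bp 11.5% and 3.14%, and within 5 kb of the TSS 19.3% and 4.51%. A shared-tissue site was near 20 of the 218, or 9.17% (6.02 to 13.7), also above the 5.50% of all protein-coding genes, and a muscle-only site near 2. An excess was not particular to the liver-only class. A liver interval of any class was near 176 of the 218, or 80.7%, beside 44.97% of all protein-coding genes. For any muscle interval the shares were 68.3% and 56.9%. These lists and the rule itself were drawn up with results of these data known, so their shares are descriptions. The bile acid, apolipoprotein and plasma protein lists had a shared-tissue site at 1 gene in all. Their intervals (0 to 16.8%, 0 to 13.8% and 0.393 to 11.6%) include the 5.50% of all protein-coding genes. Among the 74 genes, 61 also had some muscle interval within 20 kb, and so did 75% of all genes with a liver-only site.

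**Figure D4:**
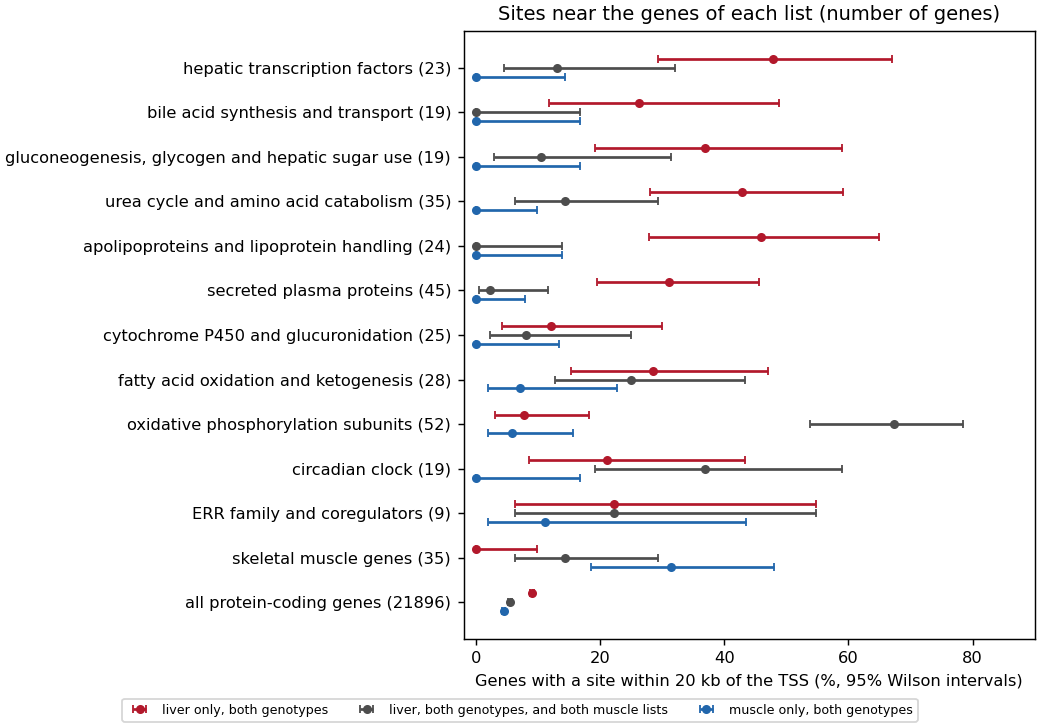
Share of the genes of each list with a site within 20 kb of the TSS (x axis, %, 95% Wilson intervals, number of genes in brackets) for liver-only (red), shared-tissue (grey) and muscle-only sites (blue). Liver-only sites lead in the lists of liver function, reaching 47.8% of the hepatic transcription factors, and shared-tissue sites lead in oxidative phosphorylation.

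Hepatic transcription factor genes held liver-only sites at 11 of 23 genes, or 47.8%, beside 9.01% of all protein-coding genes. The strongest was in the first intron of Rxra, the common partner of hepatic nuclear receptors, with a score of 168 in WT (top 9.03%) and 89 in ERRα3SA (top 22.8%). The first intron of Nr5a2, which encodes the bile acid regulator LRH-1, had a site of 104 and 160. In intron 5 of Hnf4a, a master gene of the hepatocyte, a site scored 97 and 165, and a WT muscle interval lay 154 bp from it. The others included Mlxipl, Nr1i2, Ppara, Nr1h4, Nr0b2, Klf15 and Prox1, with best WT scores between 38 and 97. None of the sites near these 11 genes held the exact ERRE.

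In bile acid synthesis and transport, 5 of 19 genes (26.3%) had a liver-only site, beside 9.01% of all protein-coding genes. The difference from the other genes was 17.3 points (2.81 to 39.8). The 5 included Cyp27a1, which oxidises the cholesterol side chain (185 and 195), and the sterol exporter gene Abcg8 (104 and 111, with 3 sites). The others were the phospholipid exporter gene Abcb4 (38 and 78), Cyp8b1 and Slc27a5. Among genes of gluconeogenesis, glycogen and hepatic sugar use, 7 of 19 (36.8%) had a liver-only site. Pck1, which encodes the rate-limiting cytosolic enzyme of gluconeogenesis, had 5, the most of any gene together with Tmem211. From upstream to downstream their WT scores were 49, 44, 168, 69 and 33, and the partner scores were 299, 89, 49, 151 and 61. The order of the sites by strength thus differed between the lists, with the interval over the TSS first in WT and the farthest upstream of the 5 first in ERRα3SA. The site at 33 overlapped the last exon of Pck1 and held an ERRE. Fructokinase (Khk, 127 and 361), the glucose transporter gene Slc2a2 (89 and 213), G6pc, the last enzyme of glucose release (69 and 120), Ppp1r3b, Gckr and Fbp1 had the others.

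Genes of the urea cycle and amino acid catabolism had the largest number, 15 of 35, or 42.9%, beside 9.01% of all protein-coding genes. The share was larger among hepatic transcription factors (47.8%) and in apolipoproteins and lipoprotein handling (45.8%). The strongest site in any of the lists was annotated as a transcription end, 6612 bp from the TSS of Gnmt, which methylates glycine (687 and 687), followed by one in an intron of Gls2, the liver glutaminase (422 and 621), which held an ERRE, and by one near Bhmt, a homocysteine methyltransferase (221 and 289). Among the others, Got1, Gpt2, Hgd, Aass, Hpd, Agxt, Slc25a13, Tat, Prodh, Aldh4a1 and the urea cycle gene Ass1 had best scores between 33 and 143.

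Apolipoproteins and lipoprotein handling had liver-only sites at 11 of 24 genes, or 45.8%, beside 9.01% of all protein-coding genes. These 24 genes had no shared-tissue site (0 to 13.8%, beside 5.50% of all protein-coding genes). Lipc, hepatic lipase, had one at its promoter (221 and 241), Apoc4 one of 219 and 528, and Apof one in its first exon (135 and 361). The Apoc4, Apoc1, Apoe and Tomm40 region held a run of 5 sites. Secreted plasma proteins had liver-only sites at 14 of 45 genes, or 31.1%. The strongest were in the first intron of Serpina1b, an α1-antitrypsin gene (348 and 279), at Ambp, which encodes α1-microglobulin and bikunin (177 and 299), and at Hc, complement C5 (170 and 118). The hormone genes Fgf21 (33 and 104) and Hamp (75 and 82), which encodes the iron hormone hepcidin, also had one. Of 25 cytochrome P450 and glucuronidation genes, 3 had a liver-only site, a share of 12.0% beside 9.01% of all protein-coding genes. These were Cyp2c70 (216 and 241), which makes muricholic acid, Cyp2e1 (160 and 51) and Cyp2a5 (33 and 58).

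Mitochondrial genes divided between the classes. Fatty acid oxidation and ketogenesis had liver-only sites at 8 of 28 genes and shared-tissue sites at 7. The first intron of Cpt1a, the liver form of the enzyme that admits fatty acids to mitochondria, had a site of 259 and 427, that of Acads, short-chain acyl-CoA dehydrogenase, one of 203 and 250, and Bdh1, which makes β-hydroxybutyrate, one of 122 and 258. Oxidative phosphorylation subunits had liver-only sites at 4 of 52 genes, or 7.69%, near the share of all genes, against shared-tissue sites at 35 (67.3%, beside 5.50%). The 4 were the complex I genes Ndufv1 (69 and 330), Ndufa9 (49 and 68), Ndufb7 (42 and 35) and Ndufb8 (33 and 75). In the circadian clock, Per2 (221 and 270), Arntl (56 and 119), Rora (44 and 32) and Nr1d2 (32 and 168) had liver-only sites. Shared-tissue sites were near 7 of 19 clock genes (36.8%, beside 5.50% of all protein-coding genes). Of 9 genes for the ERR family and its coregulators, the corepressor gene Nrip1 (62 and 68) and the PGC-1β gene Ppargc1b (31 and 46) had one. The liver-only share was 21.1% in the clock list and 22.2% in the ERR list, beside 9.01% of all protein-coding genes. The intervals of both differences from the other genes included 0, at 12.1 points (−0.494 to 34.3) and 13.2 points (−2.68 to 45.7).

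For genes of other cells, the counts could not be told from the 9.01% of all protein-coding genes. None of 35 skeletal muscle genes had a liver-only site, a difference from the other genes of −9.02 points (−9.41 to 0.876). A muscle-only site was near 11 of them (31.4%, beside 4.45% of all protein-coding genes) and a shared-tissue site near 5 (14.3%, beside 5.50%). None of 8 Kupffer cell, 8 stellate cell and 6 cholangiocyte markers had a liver-only site. In lists of this size that also does not differ from the share of all genes beyond counting error. Among 8 liver endothelial markers, Pecam1 had a site of 143 and 250.

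The liver-only sites near liver genes held the ERRE less often than the other liver-only sites. Of the 99 sites within 20 kb of a gene of the 8 liver lists, 6 held the ERRE, or 6.06% (2.81 to 12.6), against 24.6% of the other 4745, a difference of −18.6 points (−22.0 to −11.9). Their median score was 62 in both sets and their median GC content 50.3% against 48.3%. Against only the other sites within 20 kb of a TSS the difference was −17.1 points (−20.8 to −10.4), and outside repeats −11.8 points (−15.3 to −4.67). With both limits it was −9.69 points (−13.4 to −2.50). The AGGTCA hexamer was present in 59.6% of them against 70.3% of the others. Repeats were annotated at 12.1% of the sites near liver genes against 30.4% of the others. The 22 shared-tissue sites near the same genes held the ERRE at 1 site, so that the difference from these was 1.52 points (−16.0 to 9.04). This comparison was chosen after the values were seen.

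The sites were scattered, with some dense groups. Counting neighbours whose centres lay within 20 kb as 1 run, 3587 liver-only sites stood alone, and 1257 fell into runs of 2 or more. Runs of 6 were found 3 times. The first spanned 50.3 kb on chromosome 3 at Uox, which encodes the liver enzyme urate oxidase, and Dnase2b, with a best score of 634. The second spanned 31.8 kb on chromosome 2 at Ctcflos and Pck1, and the third 58.5 kb on chromosome 13 at 9330162012Rik, Gpld1, a plasma phospholipase gene, and Mrs2, a mitochondrial magnesium channel gene. Slc12a7, a potassium chloride cotransporter gene (best score 318), and A230050P20Rik (231) had 4 sites each and Tmem211 5, with scores from 33 to 231. Runs of 5 also lay at Gpam, which starts triglyceride synthesis, and at the hepatic regulator Klf15.

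**Figure D5:**
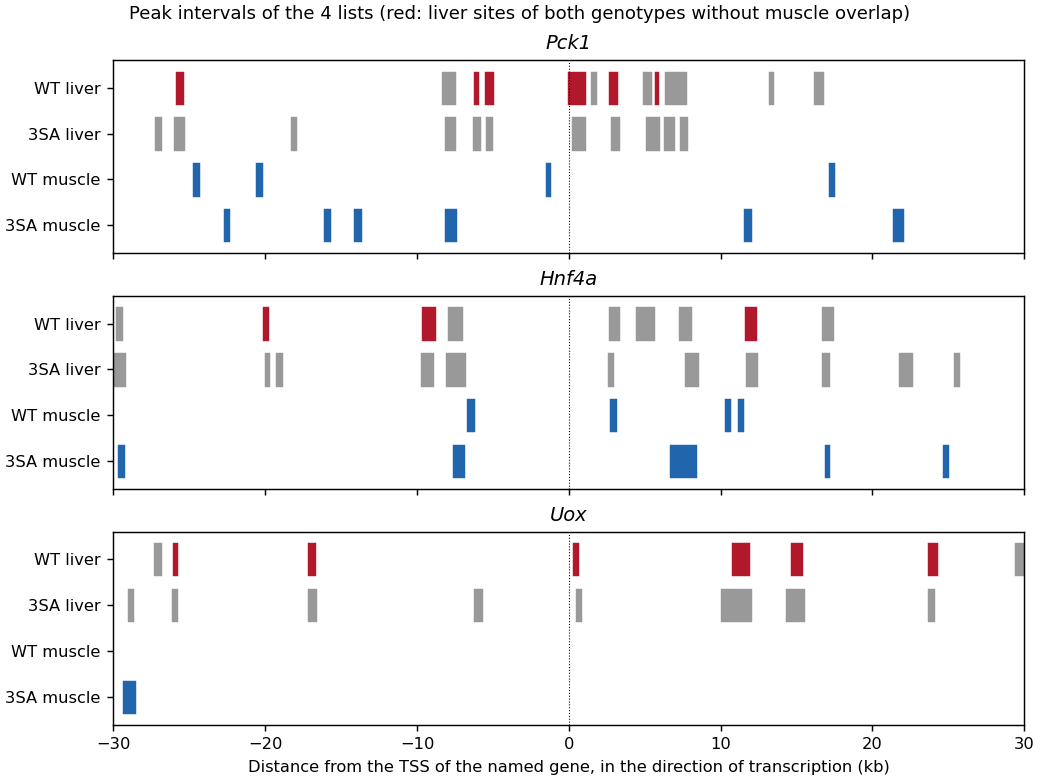
Called intervals of the 4 lists around the TSS of Pck1, Hnf4a and Uox (x axis, distance from the TSS in kb in the direction of transcription), with liver-only sites in red in the WT liver row, all other liver intervals in grey and muscle intervals in blue. Pck1 and Hnf4a had muscle intervals between their liver-only sites, while the 6 sites at Uox and Dnase2b lay in a region with 1 muscle interval, at its upstream edge.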

How the data were processed

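The data were 4 ERRα ChIP-seq peak lists, from liver and skeletal muscle of WT and ERRα3SA mice. The input libraries hold no values used here. According to the submitters' processing notes and the paper, the authors used Trimmomatic 0.36 for trimming and BWA 0.7.12 for alignment to mm10, removed duplicates with Picard 2.0.1, called peaks with MACS2 2.1.1.20160309 against input DNA and annotated them with HOMER 4.9.1. The deposited score is a whole number without a fixed range, used only within a list. CpG and GC contents are deposited as fractions, and the distance to the TSS in bp. The paper describes peaks of fixed width and 4 immunoprecipitations, whereas the deposited intervals vary in width and the labels give 3.

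Positions are 1-based. GC content recomputed from GRCm38.p6 equalled the listed value for 21811 of 21813 WT liver and 29037 of 29040 ERRα3SA liver intervals, so that genome was used for sequences. Motifs were searched on both strands in the central 300 bp and, as background, in windows 5 kb to either side. Genes were matched by gene ID to RefSeq. Some listed genes and motifs are not reported here. No list has replicates, and no test was run. The liver-only sites, the gene lists, the motifs and the rule for named genes were chosen with earlier results of these data known. Comparisons within GC bands and bands of distance, and those of sites near liver genes, were added after the values were seen. Named were the 8 highest-scoring sites, up to 3 genes of each of 16 lists, the genes with most sites, the 3 largest runs and sites at the limits of the rule. Other listed genes, Qprt, Olfr161, Gpam's run and Klf15's run were named after their values were seen. Pairing and motif search were tested on 2000 simulated intervals with 500 planted partners, all found and none falsely. Python 3.11.15, numpy 2.4.6, pandas 2.3.3, pysam 0.24.0, matplotlib 3.10.9 and samtools 1.23.1 were used.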

Additional observations from a re-analysis of the deposited data

How the results depend on the processing

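Of 85 alternatives, 16 of them chosen after seeing the data, 41 stayed within the interval of the reported share or difference, or within 1.5 times a reported count, and none reversed a difference whose interval excluded 0. No paired analysis was possible because each group has 1 library. A centre distance of 100 bp left 2976 sites and 1242 genes, with an ERRE share of 27.3% and 52.1% within 20 kb. A distance of 1000 bp gave an ERRE share of 22.1% and 55.5% within 20 kb. Requiring only that muscle centres lie farther than 300 bp gave 5.40% promoter sites and 55.6% within 20 kb. With no muscle interval within 1000 bp, 52.1% lay within 20 kb. With none within 10000 bp, 2017 sites and 688 genes remained in number, with 25.8% ERRE, 3.22% promoter, 43.0% within 20 kb and 11.5% of the liver list genes (3.14% of all genes). With only muscle intervals of a score of 50 or more excluding, promoter sites made up 6.05% and 56.5% lay within 20 kb. Both liver scores of 50 or more gave 2609 sites, 1101 genes, 27.1% ERRE and 52.4% within 20 kb. Both scores of 100 or more gave 1017 sites, 449 genes, 28.9% ERRE, 52.0% within 20 kb and 10.6% of the liver list genes (2.05% of all genes). A window of 200 bp gave 19.4% ERRE and 0.599% HNF4, the whole interval 30.6% and 1.69%, and TNAAGGTCA 32.3%. Promoters by 1000 bp made up 8.32%, and the difference from shared-tissue sites was then −20.0 points. Distances of 5 kb gave 987 genes and 19.3% of the liver list genes, and any RefSeq TSS within 20 kb 3262 genes and 44.5%. The ERRE difference from muscle-only sites was 12.0 points outside repeats, 20.5 at WT scores of 100 or more and 24.5 with TNAAGGTCA. That from shared-tissue sites was −2.26 outside repeats and 3.70 (0.181 to 7.21) at scores of 100 or more, so its sign depends on these choices. The ERRE difference of sites near liver list genes from the other liver-only sites was −11.8 outside repeats and −22.6 with TNAAGGTCA. The cause of these shifts was not tested, apart from the windows, distances and fewer sites that the alternatives set themselves. Read depth, which limits which intervals were called, is unknown.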

Other observations

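Members of the AGGTCA family other than the ERRE were also present. Directly repeated AGGTCA hexamers without a spacer were in 54 liver-only windows (1.11%), against 1.68% of the shared-tissue and 0.0310% of the neighbouring windows. With a spacer of 4 bases, as thyroid hormone and liver X receptors with RXR prefer, they were in 0.557% of the liver-only and 1.77% of the shared-tissue windows, and with a spacer of 5 bases, as retinoic acid receptors with RXR prefer, in 0.867% and 2.45%.

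In the 1451 liver-only windows without AGGTCA, stretches of 8 bases that differ from part of the ERRE at 1 base were among those most frequent relative to neighbouring windows. CAAGGTCG was in 3.58% of these windows and in 0.165% of the neighbouring windows without AGGTCA, CAAGGGCA in 8.61% and 1.93%, and CAAGGTTA in 4.27% and 1.02%. CAAGGTTA was in 2.21% and CAAGGTCG in 4.14% of the shared-tissue windows without AGGTCA. Of the liver-only sites, 19 (0.392%) lay on the X chromosome, which held 0.289% of all WT liver intervals.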
